A study of Rattus norvegicus with 8 samples.

Results

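Rat brain RNA taken 2 h after transient occlusion of the middle cerebral artery (MCAO), a model of ischaemic stroke, was compared with RNA taken 2 h after a sham operation. The comparison set 4 MCAO arrays against 4 sham arrays, 8 of the 8 arrays in the series, with pretreatment (vehicle or candesartan) as a covariate. It was read mainly through separation: a probe set counted as separated when all 4 MCAO arrays lay above, or all 4 lay below, all 4 sham arrays. Of 10310 probe sets that passed a filter on low signal, 292 were separated upwards (2.83% of those tested) and 246 downwards (2.39%), 538 in all or 5.22%. If all 8 arrays were exchangeable, a probe set without any effect would be separated in either direction with probability 0.0286. Part of the 538 can therefore be separated without any effect. limma's moderated test called 38 probe sets higher after MCAO at a Benjamini-Hochberg adjusted p under 0.05 (0.369% of those tested) and 0 lower (0%). At an unadjusted p under 0.05 the same fit had 458 higher and 416 lower probe sets.

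All animals were male Wistar rats of 7 weeks and 160 to 200 g, and each array held RNA pooled from 2 rats. Each of the 4 groups had 2 such pools. Sham vehicle rats had saline under the skin for 5 days and a sham operation, and sham candesartan rats had candesartan at 0.1 mg/kg per injection over the same 5 days. MCAO vehicle and MCAO candesartan rats had those pretreatments before the right artery was closed for 90 min and then reopened. Candesartan blocks the angiotensin AT1 receptor. The treatment protocol of the array MCAO candesartan 2 named no pretreatment, and its group rests on its description. RNA came from a segment of the right hemisphere, so each value mixes all cell types of that segment.

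The deposited values were probe set signals in arbitrary units, already scaled so that the trimmed mean was 2500 on every array. Differences are on the log2(signal + 370) scale, the offset being the 20th percentile of all values, 369.9. This scale understates the change of dim genes. Values written as ± after a difference are standard errors from the fit of 4 against 4 arrays, and ± after a mean signal is the SD (n = 4). Array MCAO candesartan 2 stood apart, with a mean correlation to the other arrays of 0.9595, against 0.9761 or more for each of the other arrays. Because separation asks every array to agree, leaving out any array can only add probe sets: without this array 524 were separated upwards and 408 downwards, and limma called 57 higher and 2 lower. Brain markers were bright, with the myelin gene Mbp at 89295 or more and the synaptic gene Snap25 at 55509 or more on every array, while of 6 genes of other tissues checked, the skin keratins Krt5 and Krt14 and the liver gene Apoa1 did not pass the filter. The other 3 passed it: the liver gene Alb at 641 to 2027 over its 2 probe sets, and the muscle genes Ckm at 768 to 1286 and Acta1 at 2257 to 2942. The choroid plexus gene Ttr lay between 45165 and 59442, and haemoglobin Hbb between 75963 and 104739.

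Immediate early genes are transcribed within minutes of a stimulus without new protein synthesis, because the factors that drive them are already present and are switched on by phosphorylation. In brain they respond to calcium entry and depolarisation, and many encode transcription factors or proteins that damp the same signal. The heat shock response is a separate early programme in which heat shock factor 1, freed by unfolded proteins, switches on chaperone genes.

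Promoter letters are printed here for members chosen for their matches to the sites these programmes are known for. They are the 250 bases before the gene start in RefSeq's rat assembly GRCr8, 5′ to 3′ on the gene's strand, and capitals mark the matches found by search. The choice of promoters to print was made after the matches had been seen. The promoters of Hspa1a, Hspb1, Fosb, Homer1, Ptgs2 and Rem2, which are among the 15 largest upward differences, held no match to any site searched. Egr2 holds a CArG box, the site of serum response factor, and a CRE half-site. Ier2 holds a full CRE, the cyclic AMP response element. Nr4a1 holds 4 CRE half-sites and, near its start, a match to the NF-kB site. Cxcl1 holds NF-kB matches on both strands that overlap, together with 2 CRE half-sites. Hspe1 holds 2 overlapping heat shock elements and a CRE half-site.
Egr2 (chr20:21054442-21054691, minus strand): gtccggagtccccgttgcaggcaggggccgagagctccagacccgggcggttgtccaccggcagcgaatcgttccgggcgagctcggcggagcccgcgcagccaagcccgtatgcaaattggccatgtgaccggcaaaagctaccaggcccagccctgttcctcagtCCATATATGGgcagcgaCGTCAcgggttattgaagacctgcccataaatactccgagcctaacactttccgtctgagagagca
Ier2 (chr19:40399123-40399372, plus strand): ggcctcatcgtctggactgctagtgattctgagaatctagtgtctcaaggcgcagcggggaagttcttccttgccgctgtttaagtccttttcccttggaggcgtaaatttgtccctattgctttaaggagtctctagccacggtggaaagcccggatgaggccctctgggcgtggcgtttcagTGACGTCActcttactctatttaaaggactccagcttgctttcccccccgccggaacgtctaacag
Nr4a1 (chr7:134259888-134260137, plus strand): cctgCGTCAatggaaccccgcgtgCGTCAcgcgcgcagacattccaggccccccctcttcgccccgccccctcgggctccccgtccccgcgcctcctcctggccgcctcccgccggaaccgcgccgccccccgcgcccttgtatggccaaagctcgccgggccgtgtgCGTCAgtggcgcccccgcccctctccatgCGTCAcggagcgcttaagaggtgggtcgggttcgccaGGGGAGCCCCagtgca
Cxcl1 (chr14:17479322-17479571, minus strand): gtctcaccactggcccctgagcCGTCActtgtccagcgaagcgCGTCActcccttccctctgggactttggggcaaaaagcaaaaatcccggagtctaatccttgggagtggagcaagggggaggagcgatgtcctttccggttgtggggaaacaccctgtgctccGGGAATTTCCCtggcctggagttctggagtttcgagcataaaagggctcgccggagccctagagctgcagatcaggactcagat
Hspe1 (chr9:64084077-64084326, plus strand): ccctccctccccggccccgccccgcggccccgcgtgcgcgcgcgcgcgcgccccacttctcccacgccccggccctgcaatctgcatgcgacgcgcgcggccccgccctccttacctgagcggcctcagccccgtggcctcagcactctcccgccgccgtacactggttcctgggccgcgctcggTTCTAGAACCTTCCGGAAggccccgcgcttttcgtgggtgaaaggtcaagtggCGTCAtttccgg

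The Egr2 CArG box ran from 83 to 74 bases before the start, the Ier2 CRE from 66 to 59, and the Cxcl1 NF-kB matches from 84 to 74. The Hspe1 elements ran from 65 to 48 bases before the start, and the head-to-head neighbour Hspd1 shares this stretch of chromosome 9, so the pair of promoters is not independent. Motifs were searched on both strands. The CRE was TGACGTCA, its half-site TGACG (found also within every full CRE), the AP-1 site TGANTCA and the heat shock element GAANNTTCNNGAA. The CArG box and NF-kB site were searched by their usual consensus. Entries were matched for 207 of the 243 genes separated upwards, 169 of the 201 separated downwards and 6255 of the 7466 tested. Arc, Atf3, Fos, Erap1, Nr3c2 and Pf4 had none.

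A CArG box was found in 4.35% of the promoters of genes separated upwards, 0% of those separated downwards, 1.25% of tested genes and 1.5% of all 27457 promoters in the table. The 9 genes with the box among those separated upwards were Egr1, Egr2, Srf, Zfp36, Klf6, Fhl2, Arhgap17, Dapk3 and Kansl2. A full CRE was found in 4.83% upwards, 2.96% downwards, 2.89% of tested and 1.7% of all promoters, and Dusp1, Ier2, Plk2 and Ppp1r15a were among its 10 carriers upwards. The CRE half-site gave 33.3%, 22.5%, 29.6% and 19% in the same order. The AP-1 site gave 3.38%, 2.96%, 4.11% and 6.36%, and the NF-kB site 5.31%, 2.96%, 4.2% and 3.52%. The heat shock element gave 1.45%, 1.18%, 0.384% and 0.597%, and its 3 carriers upwards were Hspd1, Hspe1 and Hsph1. Of the 15 genes with the largest upward differences, 12 had an entry. Among these 12, 0 held a CArG box, a full CRE, an AP-1 site or a heat shock element. A CRE half-site was in 6 of them and an NF-kB match in 3. These shares describe letters in a fixed window and were not tested.

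The genes separated upwards were led by heat shock and immediate early genes. The 292 probe sets covered 243 named genes and 39 probe sets without a single gene name, and their median difference was 0.32, with 68 above 0.5 and 18 above 1. Of them, 37 probe sets, covering 30 named genes, were among limma's calls, and 228 had an unadjusted p under 0.05. The 246 separated downwards covered 201 named genes, with a median size of 0.27, 17 above 0.5 and 0 above 1. None of these 246 was called by limma, where 163 had an unadjusted p under 0.05 and the smallest adjusted p was 0.0584. The largest differences were thus several times greater upwards (3.52) than downwards (0.89 in size).

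Hspa1a encodes inducible Hsp70, the chaperone that refolds damaged protein. Its signal was 1343 and 1205 with vehicle and 1284 and 1147 with candesartan on the sham arrays, and 27296 and 29810.3 with vehicle and 5794 and 14082 with candesartan on the MCAO arrays. Every MCAO array was far above every sham array, and the pair with vehicle was brighter than the pair with candesartan. The difference was 3.36 ± 0.30, which limma called (adjusted p = 0.000222). A probe set assigned to both Hspa1a and the near-identical Hspa1b, whose RNAs it may not tell apart, gave 3.52 ± 0.35 (limma adjusted p = 0.000414).

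Hspb1 encodes the small chaperone Hsp27. Its signal was 633 and 634 with vehicle and 733 and 743 with candesartan on the sham arrays, and 4592 and 3133 with vehicle and 1273 and 888 with candesartan on the MCAO arrays, and the groups did not overlap. The difference of 1.22 ± 0.28 was not called (limma adjusted p = 0.117). It was called in the fit to 4 group means (adjusted p = 0.00257), and without MCAO candesartan 2 (difference 1.46, adjusted p = 0.0275). Dnajb1, an Hsp40 co-chaperone that hands clients to Hsp70, rose by 0.69 ± 0.11 on the separated probe set (limma adjusted p = 0.0193), with signals from 2873 to 3563 on the sham arrays and 3850.2 to 7296 on the MCAO arrays. A second Dnajb1 probe set was the only call whose arrays overlapped: its sham arrays reached 3226 and its lowest MCAO array was 3047 (difference 0.79 ± 0.13, limma adjusted p = 0.0196). Both Dnajb1 calls were lost on leaving out any 1 of the 4 vehicle arrays (adjusted p up to 0.101), and the second also without sham candesartan 1 (0.0541). They were lost too in the fits with no pretreatment covariate (0.204 and 0.196), no filter (0.0570 and 0.0706) and no variance trend (0.0523 and 0.0524). Dnajb4, another Hsp40, ran from 5223 to 6204 on the sham arrays and 7572 to 8177 on the MCAO arrays (difference 0.44 ± 0.09, limma adjusted p = 0.0584; 0.0474 with the stricter filter and 0.0417 with no pretreatment covariate).

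Of the 25 measured genes listed as heat shock proteins and chaperones, 8 were separated upwards and 0 downwards, and limma called 2, Hspa1a and Dnajb1. Their median difference was 0.14, beside -0.0040 over all 7466 named genes, and 20 of the 25 were above 0. The median was 0.23 without MCAO candesartan 1, 0.12 without MCAO candesartan 2 and 0.13 without sham candesartan 1. Hsph1, Hspd1, Hspe1 and Dnaja1 were separated with differences of 0.32, 0.21, 0.22 and 0.28, and none of these 4 was called (limma adjusted p from 0.221 to 0.590). The summed signal of the list was 180900 to 187700 on the sham arrays and 203300 to 247900 on the MCAO arrays. The 18 measured genes of the unfolded protein and integrated stress response had 0 separated in either direction and a median of -0.02 (0.02 without MCAO candesartan 2 and 0.01 without sham candesartan 1). Over all named genes 2.95% were separated upwards and 2.3% downwards, so 0 of 18 is near that share.

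The AP-1 genes encode the Fos and Jun proteins, which pair to bind DNA, and the related stress factor Atf3. Fos gave 955 and 965 with vehicle and 755 and 852 with candesartan on the sham arrays, and 10899 and 7985 with vehicle and 6332 and 7695 with candesartan on the MCAO arrays. No MCAO array came near a sham array. The difference, 2.76 ± 0.12, had the smallest p of any probe set in the fit (limma adjusted p = 2.01e-07). Fosb, a second Fos protein, gave 278 and 398 with vehicle and 338 and 348 with candesartan on the sham arrays, and 3007 and 1806 with vehicle and 1323 and 2321 with candesartan on the MCAO arrays. It rose by 1.76 ± 0.19 (limma adjusted p = 0.000665).

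Atf3 was dim in sham brain, and its signal was 116 and 73 with vehicle and 178 and 60 with candesartan on the sham arrays, and 1821 and 2118 with vehicle and 853 and 1022 with candesartan on the MCAO arrays. It rose by 1.88 ± 0.22 (limma adjusted p = 0.00103), and the MCAO vehicle pair was above the MCAO candesartan pair. With an offset of 16 in place of 370 its difference was 3.58. Junb, a Jun protein that restrains Jun, gave 1375 and 1549.7 with vehicle and 1836 and 1552 with candesartan on the sham arrays, and 4706 and 4243 with vehicle and 3859 and 4066 with candesartan on the MCAO arrays. It rose by 1.24 ± 0.10 (limma adjusted p = 0.000151), with all 4 MCAO arrays between 3859 and 4706. For Jun itself the 3 tested probe sets disagreed in size. The separated set rose by 0.96 ± 0.14 (limma adjusted p = 0.0116), and the others overlapped, with 0.75 ± 0.20 (0.227) and 0.12 ± 0.13 (0.839). That call needed sham candesartan 1 and all 4 vehicle arrays: it was lost on leaving out any of these 5 (adjusted p up to 0.0711), and also with no pretreatment covariate (0.0838) or no filter (0.0529). Over the list, 5 of 10 measured AP-1 and ATF genes were separated upwards (50%, beside 2.95% of all named genes) and 0 downwards. The median difference was 0.34, and limma called 4 of the 10, beside 26 of all 7466 named genes.

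The Egr zinc finger proteins and the Nr4a orphan nuclear receptors are transcription factors induced by growth factors and neuronal firing. Nr4a1 gave 2976 and 2909.9 with vehicle and 3270.3 and 2079 with candesartan on the sham arrays, and 7977 and 8324 with vehicle and 9054 and 12505 with candesartan on the MCAO arrays. It rose by 1.62 ± 0.15 (limma adjusted p = 0.000293), and the candesartan pair lay above the vehicle pair among the MCAO arrays. Egr1 was already bright in sham brain, with 14018 and 13792 with vehicle and 13593 and 12384 with candesartan on the sham arrays, and 27487 and 24231 with vehicle and 23618 and 29748 with candesartan on the MCAO arrays. It rose by 0.94 ± 0.10 (limma adjusted p = 0.000460).

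Egr4 signals were 1546 and 1761 with vehicle and 1334 and 1565 with candesartan on the sham arrays, and 3867 and 3148 with vehicle and 4248 and 3822 with candesartan on the MCAO arrays, a rise of 1.10 ± 0.11 (limma adjusted p = 0.000460). Egr2 and Nr4a3 were also called, and both lie outside the naming rule and were named because of their calls. Egr2 ran from 1151 to 1482 on the sham arrays and 2394 to 2855 on the MCAO arrays and rose by 0.77 ± 0.11 (limma adjusted p = 0.00529). Nr4a3 ran from 1748 to 2331 on the sham arrays and 3029 to 3968 on the MCAO arrays and rose by 0.78 ± 0.11 (limma adjusted p = 0.00891), a call lost on leaving out MCAO vehicle 1 or sham vehicle 2 (adjusted p up to 0.0536). Ier2, an immediate early gene of uncertain function, ran from 213 to 499 on the sham arrays and 750.3 to 1112 on the MCAO arrays but was not called (0.85 ± 0.17, limma adjusted p = 0.0792). It was called in the fit with no variance trend (adjusted p = 0.0139), and with an offset of 16 its difference was 1.42 without a call. Klf6, a zinc finger factor, and Ier5, also named for their calls, rose by 0.69 ± 0.12 and 0.55 ± 0.09 (limma adjusted p = 0.0203 and 0.0196). The called Klf6 set passed the filter only through its MCAO arrays. The Klf6 call was lost on leaving out any array but MCAO candesartan 2, and the Ier5 call on leaving out any vehicle array or sham candesartan 1 (adjusted p up to 0.101 for both). Of 23 measured genes of this group, 11 were separated upwards (47.8%, beside 2.95% of all named genes) and 0 downwards, with a median of 0.41. limma called 6 of the 23, beside 26 of all 7466 named genes.

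**Figure D1:**
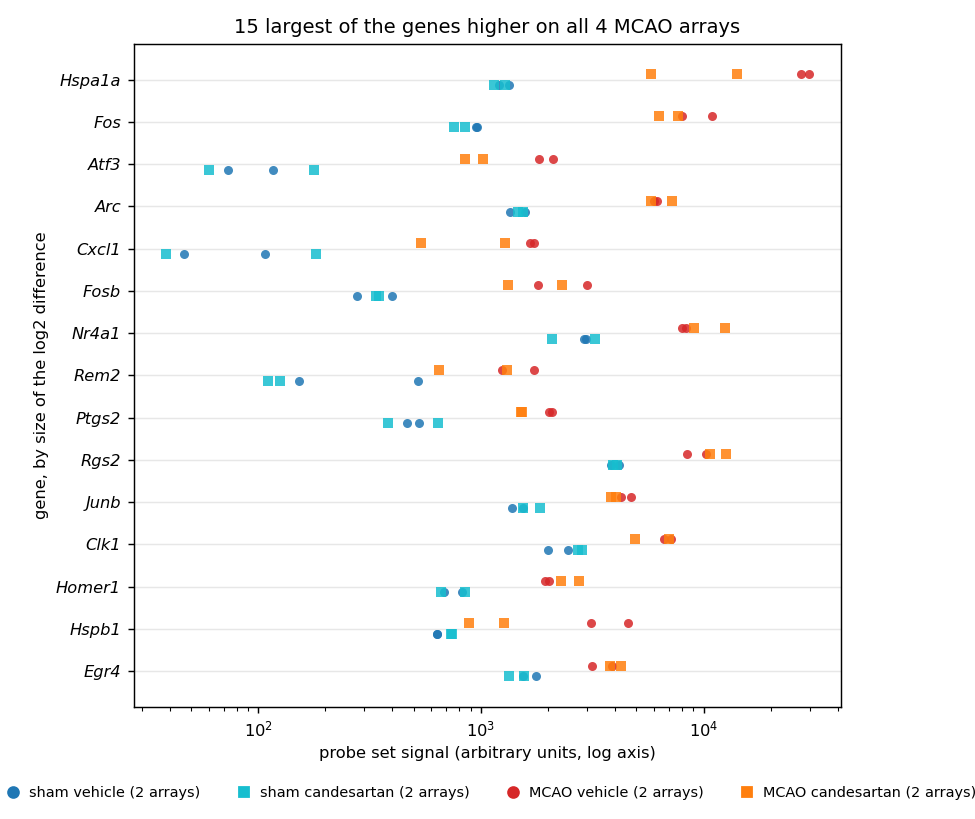
Signal on each of the 8 arrays for the 15 named genes with the largest differences among those higher on all 4 MCAO arrays (x axis, arbitrary units, log axis; 1 row per gene). Circles are vehicle and squares candesartan pools, with MCAO points above and sham points below each line. The gap between the sham and MCAO points is widest for Fos. The MCAO vehicle points of Hspa1a and Hspb1 lie to the right of the MCAO candesartan points.

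Effector genes of neuronal activity act at the synapse or in signalling rather than on DNA. Arc, which removes glutamate receptors from synapses, gave 1353 and 1576 with vehicle and 1471 and 1549.7 with candesartan on the sham arrays, and 6179 and 5995 with vehicle and 5802 and 7230.3 with candesartan on the MCAO arrays. It rose by 1.84 ± 0.10 (limma adjusted p = 1.28e-06), with its 4 MCAO arrays between 5802 and 7230. Homer1, whose short form uncouples receptors from the postsynaptic scaffold, gave 819 and 684 with vehicle and 663 and 847 with candesartan on the sham arrays, and 2031 and 1947 with vehicle and 2772 and 2297 with candesartan on the MCAO arrays on its leading probe set. It rose by 1.22 ± 0.12 (limma adjusted p = 0.000457). That set passed the filter only through its MCAO arrays. Of the other 4 tested Homer1 probe sets, 1 was called as well (0.64 ± 0.11, adjusted p = 0.0237) and 3 overlapped, with differences from -0.01 to 0.35. The second call was lost on leaving out any array but MCAO candesartan 2 (adjusted p up to 0.132).

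Ptgs2 encodes the inducible cyclooxygenase that makes prostaglandins, and its signal was 526 and 467 with vehicle and 384 and 639 with candesartan on the sham arrays, and 2091 and 2021 with vehicle and 1526 and 1508 with candesartan on the MCAO arrays. It rose by 1.30 ± 0.14 (limma adjusted p = 0.000713). Rgs2, which shuts off G protein signalling, gave 4157 and 3828 with vehicle and 4096 and 3920.2 with candesartan on the sham arrays, and 8387 and 10262 with vehicle and 12552 and 10726 with candesartan on the MCAO arrays. It rose by 1.30 ± 0.10 (limma adjusted p = 0.000104), and its second probe set gave 1.29 ± 0.13 (adjusted p = 0.000414). Rem2, a small GTPase that restrains calcium channels, was at 111 to 520 on the sham arrays and 648 to 1737 on the MCAO arrays. It passed the filter on this probe set only through its MCAO arrays. Its rise of 1.43 ± 0.22 (limma adjusted p = 0.0139) was lost as a call without sham vehicle 2, either MCAO vehicle array, sham candesartan 1 or MCAO candesartan 1 (adjusted p up to 0.0975). With an offset of 16 the difference was 2.56. A second Rem2 probe set overlapped, with 0.37 ± 0.16 (0.574). Of 20 measured activity-induced effectors, 6 were separated upwards (30%, beside 2.95% of all named genes) and 0 downwards. limma called 3 of the 20, beside 26 of all 7466 named genes. Their median of 0.26 was 0.18 without MCAO candesartan 2. Bdnf, the activity-dependent neurotrophin, overlapped between the groups, at 781 to 1345 on the sham arrays and 1221 to 1902 on the MCAO arrays (difference 0.39 ± 0.14, limma adjusted p = 0.441).

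Feedback regulators dephosphorylate kinases, destabilise mRNAs or stop the cell cycle after the same stimuli. Zfp36l1, which speeds the decay of AU-rich mRNAs, gave 3314 and 3178 with vehicle and 3370.3 and 3358 with candesartan on the sham arrays, and 6400.2 and 5769 with vehicle and 5417 and 7758 with candesartan on the MCAO arrays. It rose by 0.86 ± 0.11 (limma adjusted p = 0.00252), and its sham arrays spanned only 3178 to 3370. Gadd45g, a stress-induced growth arrest protein, was at 1725 to 2249 on the sham arrays and 3187 to 3922 on the MCAO arrays and rose by 0.81 ± 0.11 (limma adjusted p = 0.00388). Gadd45b, its relative, gave 1315 and 1066 with vehicle and 972 and 1362 with candesartan on the sham arrays, and 3458 and 3352 with vehicle and 1430.2 and 1646 with candesartan on the MCAO arrays. It was separated but not called (0.80 ± 0.18, limma adjusted p = 0.107; 0.97 and 0.0327 without sham candesartan 2), and it was called in the fit to 4 group means (adjusted p = 0.0125). The MAP kinase phosphatase Dusp6 was separated on all 3 of its probe sets. The called set rose by 0.67 ± 0.12 (limma adjusted p = 0.0253), and the others gave 0.92 ± 0.19 (0.0863) and 0.75 ± 0.15 (0.0584). That call was lost without sham vehicle 2, either MCAO vehicle array, either sham candesartan array or MCAO candesartan 1 (adjusted p up to 0.0914), and also with no filter (0.0724) or no variance trend (0.0668). The set with 0.92 was called in the fit to 4 group means (0.0403) and without sham vehicle 1 (1.14, 0.0104).

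Further calls in this group were named because of those calls. The growth-suppressing genes Tob1 and Btg1 rose by 0.79 ± 0.12 and 0.59 ± 0.09 (limma adjusted p = 0.0139 and 0.0117), and the coregulator Cited2 by 0.71 ± 0.12 and 0.58 ± 0.10 on its 2 probe sets (0.0194 and 0.0260). The Tob1 call was lost without either sham vehicle array or MCAO vehicle 2, and the Btg1 call on leaving out sham vehicle 2, sham candesartan 1 or MCAO vehicle 2 (adjusted p up to 0.0684 for both). The larger Cited2 call was lost without sham vehicle 1, MCAO vehicle 2 or either sham candesartan array (up to 0.0971), and the smaller on leaving out any vehicle array or sham candesartan 2 (up to 0.155). The smaller was also lost with no pretreatment covariate (0.0884). Dusp1, another MAP kinase phosphatase and a glucocorticoid target, was separated without a call, at 6723 to 8126 on the sham arrays and 8313 to 14578 on the MCAO arrays (difference 0.44 ± 0.14, limma adjusted p = 0.296). The highest of these was MCAO candesartan 2, and the difference was 0.29 without it. Of 27 measured feedback regulators, 13 were separated upwards (48.1%, beside 2.95% of all named genes) and 0 downwards. limma called 6 of the 27, beside 26 of all 7466 named genes. The median was 0.44, and 0.32 without MCAO candesartan 2. Clk1, Ifrd1, Rbm24 and Peli1 were also called, the last 3 being named for their calls. Clk1, a kinase that phosphorylates splicing factors, gave 2461 and 2008 with vehicle and 2745 and 2846 with candesartan on the sham arrays, and 7120.1 and 6650.2 with vehicle and 6967 and 4944 with candesartan on the MCAO arrays, a rise of 1.23 ± 0.13 (limma adjusted p = 0.000665).

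Ifrd1, a transcriptional coregulator, Rbm24, an RNA-binding protein, and Peli1, a ubiquitin ligase, rose by 0.64 ± 0.10, 0.72 ± 0.11 and 0.56 ± 0.10 (limma adjusted p = 0.0139, 0.0143 and 0.0319). The Ifrd1 call was lost on leaving out any 1 of the 4 vehicle arrays, the Rbm24 call without sham vehicle 2, MCAO vehicle 2, sham candesartan 2 or MCAO candesartan 1, and the Peli1 call on leaving out any array but MCAO candesartan 2 (adjusted p up to 0.0806, 0.0925 and 0.169). Among 34 called probe sets with a single gene name, 17 kept their call in all 8 fits that left out an array, and these were 2 for Rgs2 and 1 each for Homer1, Hspa1a, Fos, Fosb, Atf3, Junb, Nr4a1, Arc, Ptgs2, Clk1, Egr1, Egr2, Egr4, Zfp36l1 and Gadd45g. With no filter, Tob1, Rbm24, Klf6, Peli1, both Cited2 sets and the second Homer1 set lost their calls (adjusted p from 0.0559 to 0.0732), and with no variance trend Ier5, Peli1, both Cited2 sets and the second Homer1 set did (0.0524 to 0.0661). The other 4 called probe sets had no single gene name, and 1 of them is the set shared by Hspa1a and Hspa1b.

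Of 35 cytokines, chemokines and mediators listed, 18 were measured, and 3 of these were separated upwards (16.7%, beside 2.95% of all named genes). The 3 were Cxcl1, Ccl3 and the kinase gene Ikbkb (0.27 ± 0.11, limma adjusted p = 0.523). Cxcl1, a chemokine that draws neutrophils, gave 107 and 46.5 with vehicle and 38.5 and 182 with candesartan on the sham arrays, and 1737 and 1654 with vehicle and 1287 and 540.4 with candesartan on the MCAO arrays. All sham values were below the offset of 370, and all 4 MCAO arrays were above them. Cxcl1 passed the filter only through its MCAO arrays, so its place among the 18, and the share of 16.7%, depend on its rise. The rise was 1.79 ± 0.25 (limma adjusted p = 0.00619), a call lost without either MCAO vehicle array (adjusted p up to 0.0684). With an offset of 16 the difference was 3.66. Ccl3, a macrophage-attracting chemokine, gave 1413 and 1059.8 with vehicle and 861 and 1206 with candesartan on the sham arrays, and 1867 and 2723 with vehicle and 1476 and 2299.5 with candesartan on the MCAO arrays, separated but not called (0.70 ± 0.16, limma adjusted p = 0.107). Ccl2, a monocyte chemokine, did not pass the filter. In the fit without a filter it rose by 1.31 ± 0.18 (limma adjusted p = 0.0221), with signals of 28.5 to 105 on the sham arrays and 362 to 1114 on the MCAO arrays. Il1b, Il6 and both Tnf probe sets were also below the filter, and their groups overlapped, with differences from -0.17 to 0.15 and adjusted p of 0.856 or more in that fit. On the brightest probe set of each of the 18 measured genes, 1 was called and 0 were separated downwards. The median was 0.13, and it was 0.15 with vehicle and -0.02 with candesartan. It was 0.07 without either MCAO vehicle 2 or MCAO candesartan 2. Nfkbia, the NF-kB inhibitor, overlapped, at 2555 to 4199 on the sham arrays and 2189 to 3108 on the MCAO arrays (difference -0.34 ± 0.15, limma adjusted p = 0.544).

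Downward differences were smaller, and none was called. In bulk tissue, fewer cells of a type and less RNA per cell cannot be told apart. Nr3c2 encodes the mineralocorticoid receptor, a nuclear receptor for aldosterone and corticosterone. Its signal was 3313 and 2751 with vehicle and 2397 and 1871 with candesartan on the sham arrays, and 1512 and 1604 with vehicle and 1708 and 1392 with candesartan on the MCAO arrays. The highest MCAO array, 1708, lay below the lowest sham array, 1871, and the sham vehicle pair was the highest of all. The difference was -0.60 ± 0.13 (limma adjusted p = 0.0892). Without sham candesartan 2 it was -0.70 and called (0.0405). Phlpp1, a phosphatase that switches off Akt, gave 2075 and 2100.1 with vehicle and 1771 and 1892 with candesartan on the sham arrays, and 1011 and 1495 with vehicle and 1247 and 1080.2 with candesartan on the MCAO arrays, a difference of -0.57 ± 0.12 (limma adjusted p = 0.0831). Ctsh, a lysosomal cathepsin, gave 5645 and 5580.4 with vehicle and 6359 and 4318 with candesartan on the sham arrays, and 3797 and 3958 with vehicle and 3441 and 3112 with candesartan on the MCAO arrays. Its difference was -0.56 ± 0.11 (limma adjusted p = 0.0699), and without sham candesartan 2 it was -0.65 and called (0.0327).

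Several of the 15 largest downward differences leaned on 1 array. Erap1, an aminopeptidase that trims peptides for antigen presentation, gave 979 and 1201 with vehicle and 987 and 989 with candesartan on the sham arrays, and 708 and 782 with vehicle and 757 and 41.5 with candesartan on the MCAO arrays. It passed the filter only through its sham arrays. MCAO candesartan 2 was far below the rest, and the difference was -0.69 ± 0.27 with it and -0.34 without it (limma adjusted p = 0.476 and 0.460). Eef2k, the kinase that halts translation elongation, gave 1032 and 1118 with vehicle and 1780.1 and 1199 with candesartan on the sham arrays, and 828 and 927 with vehicle and 986 and 228 with candesartan on the MCAO arrays, and its difference moved from -0.62 ± 0.25 to -0.30 without that array (adjusted p = 0.506 and 0.554). Plppr3, a neuronal membrane protein, moved in the same way from -0.65 ± 0.20 to -0.42 (limma adjusted p = 0.293 and 0.323), and Tspan8, a tetraspanin, from -0.50 ± 0.20 to -0.27 (0.530 and 0.614). All 4 remained separated without it, since removing an array cannot undo a separation.

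Astrocyte genes were among those lower on all MCAO arrays. Aqp4, the water channel of astrocyte endfeet, gave 3061 and 3419 with vehicle and 2834 and 2985 with candesartan on the sham arrays, and 2147 and 2758 with vehicle and 2073 and 1255 with candesartan on the MCAO arrays on its separated probe set, a difference of -0.54 ± 0.14 (limma adjusted p = 0.185). The other 2 Aqp4 probe sets overlapped, with -0.53 ± 0.12 and -0.43 ± 0.10 (0.0939 and 0.148), and the first of these was called without sham candesartan 2 (difference -0.65, adjusted p = 0.0180). Kcnj16, an inward rectifier potassium channel, was separated on both probe sets, with -0.52 ± 0.18 and -0.31 ± 0.11 (limma adjusted p = 0.377 and 0.412). Gjb6, the gap junction protein connexin 30, gave 3548 and 3309 with vehicle and 3627 and 3351 with candesartan on the sham arrays, and 2514 and 2678 with vehicle and 2309 and 2869 with candesartan on the MCAO arrays, with little spread inside either group (-0.37 ± 0.09, limma adjusted p = 0.168). Fgfr3 and Aldh1l1 gave -0.33 ± 0.12 and -0.31 ± 0.11 (limma adjusted p = 0.420 and 0.396). Of 18 measured astrocyte markers, 0 were separated upwards, 3 downwards (Aldh1l1, Fgfr3 and Gjb6) and 0 called on their brightest probe sets. The 3 were 16.7% of the list, beside 2.3% of all named genes separated downwards. Differences above 0 were seen for 3 of the 18. The list median was -0.14, and it moved to -0.24 on leaving out MCAO candesartan 2 and to -0.06 on leaving out MCAO candesartan 1. Their summed signal was 415100 to 443800 on the sham arrays and 373500 to 376700 on 3 MCAO arrays, but 579000 on MCAO candesartan 2, so the sums of the groups overlapped.

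Other genes among the largest downward differences encode chemokines, growth factors and matrix or junction proteins. Cxcl12, a chemokine of vessels and meninges, gave 899 and 1052 with vehicle and 866 and 934 with candesartan on the sham arrays, and 705 and 424 with vehicle and 585 and 297 with candesartan on the MCAO arrays on its separated probe set (-0.60 ± 0.17, limma adjusted p = 0.249). Its other 2 probe sets overlapped, with -0.21 ± 0.13 and -0.03 ± 0.14 (0.693 and 0.964). The separated Cxcl12 set passed the filter only through its sham arrays. Col1a2, a fibrillar collagen chain, gave 1602 and 1436 with vehicle and 2241 and 1457 with candesartan on the sham arrays, and 1428 and 992 with vehicle and 845 and 725 with candesartan on the MCAO arrays (-0.60 ± 0.17, limma adjusted p = 0.248), and its second probe set overlapped, with -0.54 ± 0.19 (0.420), and was called without sham candesartan 2 (-0.80, 0.0121). Ogn, a small matrix proteoglycan, ran from 1953 to 3131 on the sham arrays and 1372 to 1753 on the MCAO arrays (-0.50 ± 0.14, limma adjusted p = 0.236), and Rab13, a GTPase of cell junctions, from 1132 to 1597 on the sham arrays and 676 to 1039.8 on the MCAO arrays (-0.50 ± 0.14, 0.247). Igf1, insulin-like growth factor 1, gave 1941 and 2097 with vehicle and 2125 and 2088 with candesartan on the sham arrays, and 1219.8 and 1789 with vehicle and 1345 and 1093 with candesartan on the MCAO arrays (-0.51 ± 0.13, limma adjusted p = 0.160), and its second probe set overlapped, with -0.20 ± 0.12 (0.708). Igfbp5, which binds it, ran from 2630 to 3191 on the sham arrays and 1385 to 2519.5 on the MCAO arrays (-0.48 ± 0.13, limma adjusted p = 0.218), and was -0.22 with vehicle and -0.74 with candesartan. Pf4, a platelet and macrophage chemokine, ran from 1017 to 1857 on the sham arrays and 690.3 to 956 on the MCAO arrays (-0.51 ± 0.18, limma adjusted p = 0.414). Trophic factors and receptors had 3 of 22 measured members separated downwards (13.6%, beside 2.3% of all named genes) and 1, Cntfr, upwards (4.55%, beside 2.95%). Their median was -0.13 (-0.06 without sham candesartan 1 and -0.08 without MCAO candesartan 2), and 0 were called.

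**Figure D2:**
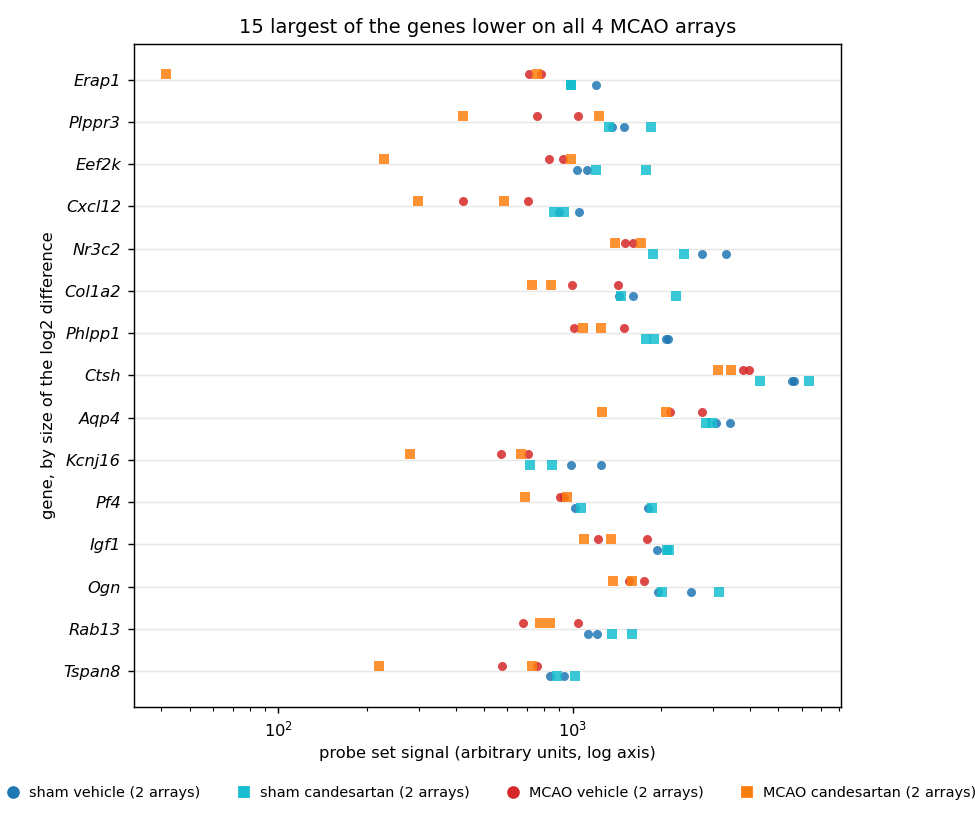
Signal on each of the 8 arrays for the 15 named genes with the largest differences among those lower on all 4 MCAO arrays (x axis, arbitrary units, log axis; symbols as for the genes that were higher). The gaps are narrow, and for Erap1, Eef2k, Plppr3 and Tspan8 the lowest point, well away from the rest, is an MCAO candesartan array.

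Over all alternatives run, downward calls appeared in 3: the fit with the pool number as a block, and those leaving out the second array of either candesartan group. With sham candesartan 2 left out, limma called 6 probe sets lower, for Col1a2, Aqp4, Slc6a3, Ctsh, Nr3c2 and Th. Slc6a3 and Th, the dopamine transporter and tyrosine hydroxylase of midbrain dopamine neurons, overlapped with all arrays, and they were named after their values were seen. Their differences without that array were -0.94 and -0.88 (limma adjusted p = 0.0180 and 0.0411), against -0.73 and -0.60 with it (0.184 and 0.476). Without MCAO candesartan 2, the 2 downward calls were Hcn2 and Zmpste24 (-0.84 and -0.56, adjusted p = 0.0309 and 0.0418), also named after their values were seen.

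Candesartan and vehicle rats gave upward MCAO differences of similar middle size, while the median downward difference was larger in size with candesartan. The median over the 292 probe sets separated upwards was 0.32 with vehicle and 0.33 with candesartan, and 149 of them were larger with vehicle. Over the 246 separated downwards it was -0.23 with vehicle and -0.31 with candesartan, and 88 were larger with vehicle. The candesartan side includes MCAO candesartan 2, the array that stood apart, and these medians were not recomputed without it. Separation over all 8 arrays fixes the sign within each pretreatment, so this shared direction carries no information. The sizes also come from the values that the rule used, and they were not tested. The interaction of operation and pretreatment was tested in limma's fit to the 4 group means. It called 2 probe sets (0.0194% of those tested), Cyth3 and H1f10, neither of which was separated, and 0 of the 538 separated. An unadjusted interaction p under 0.05 was reached by 17 of 292 upwards (5.82%) and 7 of 246 downwards (2.85%), and by 914 of all 10310 (8.87%). Separation leaves out probe sets whose MCAO differences have opposite signs with vehicle and candesartan. The lower shares and the 0 of 538 were therefore favoured by the rule, and nothing is concluded from them.

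Of the 5 genes with the smallest interaction p among those separated, 4 had larger MCAO differences with vehicle. For Hspb1 the difference was 2.05 with vehicle and 0.38 with candesartan, an interaction of -1.68 ± 0.28 (limma adjusted p = 0.160). For Hspa1a it was 4.14 with vehicle and 2.58 with candesartan (-1.56 ± 0.41, limma adjusted p = 0.458). Gadd45b gave 1.28 with vehicle and 0.32 with candesartan (-0.96 ± 0.23, limma adjusted p = 0.446), and Coq10b, a mitochondrial coenzyme Q protein, 1.10 with vehicle and 0.28 with candesartan (-0.82 ± 0.22, 0.458). Stard3nl, an endosomal membrane protein, was lower by a larger amount with candesartan, -0.09 with vehicle and -0.76 with candesartan (-0.66 ± 0.16, limma adjusted p = 0.446). None of these 5 passed the threshold, and each pretreatment had only 2 pools a side. Arc and Fos were close to equal, with 1.82 with vehicle and 1.86 with candesartan for Arc and 2.87 with vehicle and 2.65 with candesartan for Fos, and their interactions were 0.05 ± 0.19 and -0.22 ± 0.23. Nr4a1 leaned the other way, with 1.36 with vehicle and 1.88 with candesartan (0.52 ± 0.27, limma adjusted p = 0.585).

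**Figure D3:**
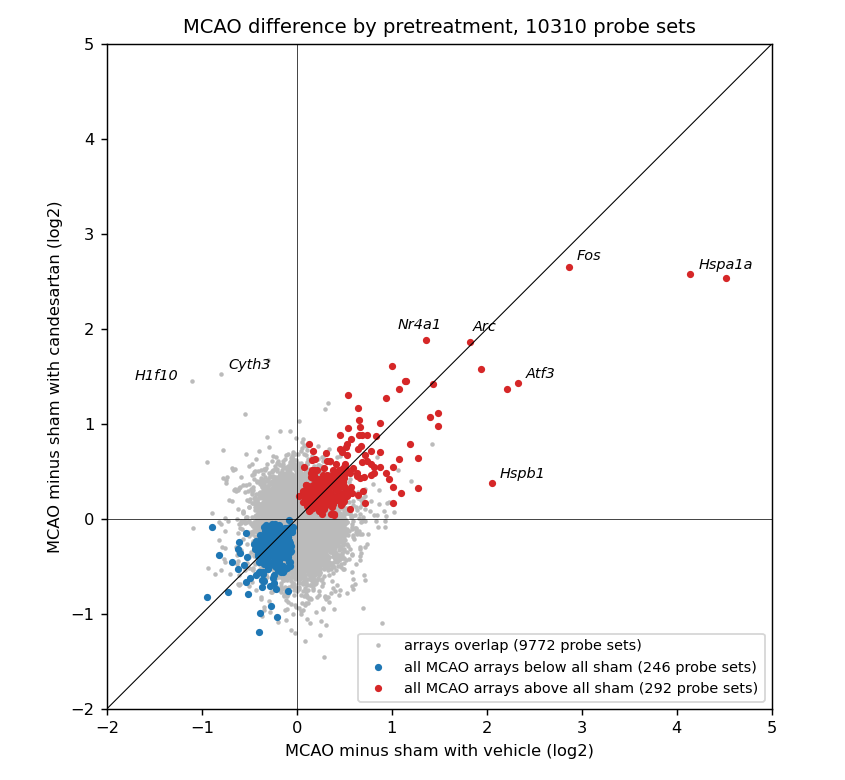
MCAO minus sham in vehicle rats (x axis, log2) against the same in candesartan rats (y axis, log2) for each of 10310 probe sets; red points were separated upwards, blue downwards, grey overlapped, and the line marks equal differences. Hspa1a (2 probe sets, 1 of them shared with Hspa1b) and Hspb1 lie to the right of the line, Nr4a1 above it, and H1f10 and Cyth3 in the upper left corner have opposite signs.

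Against 2.95% of the 7466 named genes separated upwards and 2.3% downwards, taking the brightest probe set of each gene, the 5 lists of early transcription factors, effectors, feedback regulators and chaperones had between 30% and 50% separated upwards and 0% downwards. Atf3, Fosb, Ptgs2, Ier2 and Hspb1 passed the filter only through MCAO arrays, so these shares depend in part on the rise itself. The lists and their members were also chosen with earlier results of these data known, and the contrast with all named genes was not tested. Of 26 measured splicing kinases and RNA-binding regulators 4 were separated upwards (15.4%), Clk1, Clk3, Srsf6 and Tardbp, and only Clk1 was called. The list median was 0.04, and between -0.01 without sham vehicle 2 and 0.09 without MCAO candesartan 2. Among 27 hypoxia and glycolysis genes 3 were separated upwards (11.1%), Pfkfb3, P4ha1 and Bnip3, with differences of 0.44, 0.41 and 0.14 and no call. Pfkfb3 passed the filter only through its MCAO arrays, so the 3 of 27 depends in part on its rise. The list median was 0.03, and -0.03 after quantile normalization. P4ha1, a collagen prolyl hydroxylase, was called without MCAO candesartan 2 (0.51, limma adjusted p = 0.0488). Of 16 glucocorticoid targets and metallothioneins, Per1 and Dusp1 were separated upwards and Nr3c2 downwards. In the renin-angiotensin system, the target pathway of candesartan, 1 of 12 measured genes was separated: Ace, which makes angiotensin II, at 1106 to 1259 on the sham arrays and 811 to 1084 on the MCAO arrays (-0.19 ± 0.12, limma adjusted p = 0.722). Agt, the precursor protein, overlapped at 5639 to 10142 on the sham arrays and 4358 to 6622 on the MCAO arrays (-0.50 ± 0.15, limma adjusted p = 0.265), and the receptor gene Agtr1a was below the filter on both probe sets. Apoptosis and survival genes had 0 of 15 separated.

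Few marker genes of neurons separated, and 0 is near the share of all named genes, 2.95% upwards and 2.3% downwards. None of the 15 general neuron, 13 pyramidal, 15 striatal or 11 interneuron markers measured was separated in either direction on its brightest probe set, and limma called none of them. A dimmer probe set of the striatal gene Arpp21 was separated upwards (0.27 ± 0.10, adjusted p = 0.470). Of 38 channel genes 1 was separated each way, Kcnh1 and Kcnj16, and of 43 transmitter receptors 1, the serotonin receptor Htr2c, was lower at 5738 to 7127 on the sham arrays and 4137 to 5708 on the MCAO arrays (-0.35 ± 0.09, limma adjusted p = 0.204). Microglia and macrophage markers had P2ry12 separated downwards among 13 measured (-0.34 ± 0.12, limma adjusted p = 0.430), and 1 of the 13 above 0, with a median of -0.15 that was -0.07 without MCAO candesartan 1 and -0.08 without sham candesartan 1. Aif1 disagreed between probe sets, one separated upwards with 0.27 ± 0.13 and the brighter overlapping with -0.30 ± 0.18. Of the markers of vessels, Tfrc was separated upwards (0.29 ± 0.08) and Vtn downwards (-0.35 ± 0.12) among 16, and of 12 oligodendrocyte genes Sox10 was separated upwards (0.30 ± 0.13), none of them called. Among Notch, BMP and Wnt targets, Sfrp1 and Bmp6 were separated downwards of 20 (-0.37 ± 0.11 and -0.32 ± 0.11, limma adjusted p = 0.248 and 0.403). Markers of hypothalamus and thalamus had 0 of 12 separated and 0 of 12 above 0, with a median of -0.16 that was -0.27 without sham vehicle 1 and -0.10 without MCAO candesartan 1. Their summed signal was 50340 to 62980 on the sham arrays and 42250 to 57150 on the MCAO arrays. Blood cell markers had 1 of 4 separated downwards, Pf4, with a median of -0.29 that was -0.16 without MCAO candesartan 2 and -0.18 without sham candesartan 1, and choroid plexus markers 0 of 7, with sums of 72520 to 92980 and 68880 to 84100. The part of tissue composition in the separated genes was not tested.

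**Figure D4:**
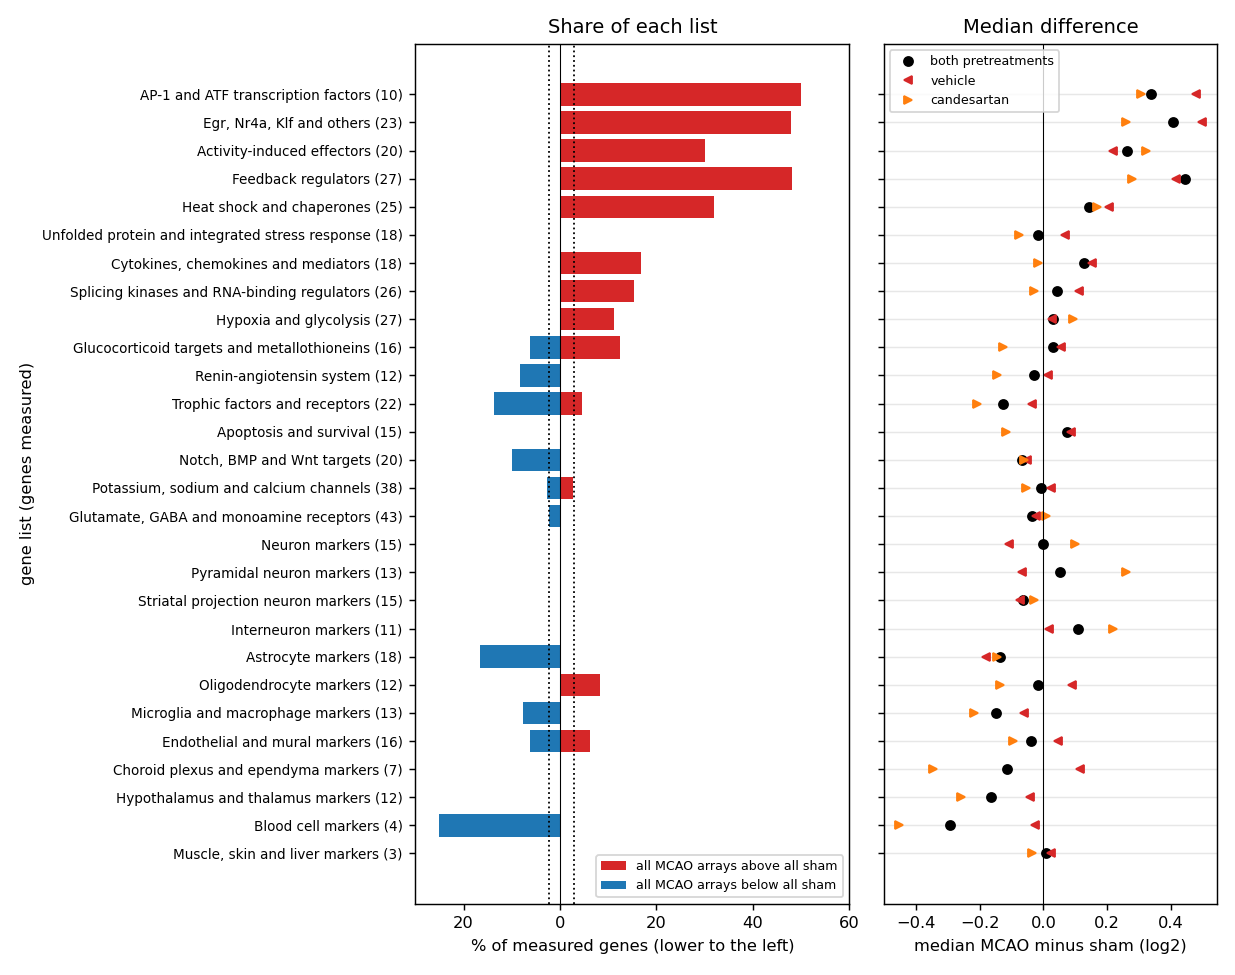
Left, percent of each gene list's measured genes (number in brackets) with all 4 MCAO arrays above (red, to the right) or below (blue, to the left) all 4 sham arrays; dotted lines mark the 2.95% and 2.3% of all named genes. Right, median MCAO minus sham (log2) over both pretreatments and within each; the early response lists lie right of 0 and the astrocyte, microglia and hypothalamus lists left of it.

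Some separated genes were read by several probe sets, of which the rule itself had chosen at least 1, so the counts that follow are a description. Of 49 genes separated upwards with 2 or more tested probe sets, 9 had at least 2 of them separated. The 9 were Adgrf5, Cited2, Dusp1, Dusp6, Homer1, Nr4a3, Rgs2, Rgs4 and Zfand5. Of 67 such genes separated downwards, 5 had at least 2 separated (Kcnj16, Ogn, Rnase4, Synrg and Trim2). These genes are given for being read repeatedly, and those outside the naming rule were chosen after their values were seen. Near the limit of the rule, Psme4, a proteasome activator, was just inside with its lowest MCAO array 0.000536 log2 above its highest sham array, and Nipsnap3b just outside, with a gap of -0.000263. Downwards, the glutamine synthetase gene Glul was just inside, with a highest MCAO signal of 24054 against a lowest sham signal of 24057, and Tmem14c just outside, with 3039.3 against 3038.9. The largest empty gap between the groups was 2.33 log2 upwards and 0.28 downwards, and the median gap was 0.07 and 0.04. With 4 arrays against 4, an exact two-sided permutation test of a single probe set cannot go below p = 0.0286.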

How the data were processed

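Total RNA from 8 pools of rat brain was hybridised to Affymetrix RAE 230A arrays, per the labels. The authors deposited 1 table of linear intensity values, 1 signal per probe set and array. Affymetrix GCOS was used, per the submitters' processing notes. Its version is not given in the sources used here. That deposited scaling between arrays was kept. Arrays give no depth, and their number limits the precision. Nothing states that the pools differ in litter or day, so p-values measure the spread between pools.

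Of 15923 probe sets, 57 controls were left out, and those with a signal above 916.3, the 40th percentile, on at least 2 arrays were kept (10310, of which 8671 had a single gene name). Names came from the platform annotation: over the whole table, controls included, 12789 probe sets had 1 symbol, 312 several and 2822 none, and 12754 matched RefSeq's GRCr8 gene table, used for names. The log2 signal plus the offset was fitted with limma 3.58.1 in R 4.3.3 (lmFit, eBayes with a variance trend; pretreatment and operation; 5 residual degrees of freedom), with Benjamini-Hochberg adjustment over all tested probe sets. The interaction used the 4 group means (4 residual degrees of freedom). Separation was counted without a test. The method was tested on simulated data.

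The text names, among separated genes, the 15 largest differences each way, up to 4 members of each of 28 gene lists each way, interaction calls, the 5 smallest interaction p, 20 fixed genes and the genes at the limit of the rule. Where a gene had several probe sets, lists used the brightest. The members and lists were chosen with earlier results of these data known. Alternatives changed the scaling, offset, filter, model and variance trend, added a replicate block or left out each array.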

Additional observations from a re-analysis of the deposited data

Results flagged for a closer look

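An array far from the other 3 of its operation was looked for in 184 groups of 4 arrays, the sham and the MCAO arrays of each named probe set. The measure was the gap to the nearest array divided by the whole range, and chance alone passes about 1 in 20 groups. It was passed in 10 groups, of which 4 lay on MCAO candesartan 2, 3 on sham vehicle 2, 2 on sham vehicle 1 and 1 on sham candesartan 2. On MCAO candesartan 2, Erap1 was at 41.5 against 708 to 782 on the other MCAO arrays (ratio 0.936), Eef2k at 228 against 828 to 986 (0.849), Pf4 at 690.3 against 909 to 956 (0.837) and Srsf6 at 6908 against 5348 to 5366 (0.987). On sham vehicle 2, Erap1 was at 1201 against 979 to 989 (0.954), Gadd45g at 2249 against 1725 to 1772 (0.901) and Ifrd1 at 1927 against 2220.0 to 2265 (0.874). On sham vehicle 1, Rem2 was at 520.0 against 111 to 152 (0.866) and Nr4a3 at 2330.5 against 1748 to 1796 (0.907). On sham candesartan 2, Egr2 was at 1151 against 1421 to 1482 (0.831).

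The MCAO difference itself differed between pretreatments for 2 probe sets. Cyth3, an exchange factor for Arf GTPases, was lower after MCAO with vehicle and higher with candesartan, an interaction of 2.32 ± 0.27 (limma adjusted p = 0.0217). H1f10, a linker histone, gave 2.55 ± 0.30 (limma adjusted p = 0.0217). With vehicle, Cyth3 signals were 1161 and 1118 after sham and 399.9 and 610.4 after MCAO. With candesartan they were 457 and 443 after sham and 1873 and 2108 after MCAO. H1f10 signals were 981 and 928, then 248 and 244 with vehicle, and 234 and 309.9, then 1422 and 1337 with candesartan, in the same order. The sham arrays of both genes were also higher with vehicle than with candesartan, and no interaction was called with an offset of 16, with either changed filter or with the replicate block.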

How the results depend on the processing

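The 38 upward and 0 downward calls and the 292 and 246 separated probe sets stayed within 1.5 times under quantile normalization, median centring, an offset of 16 and no filter; the stricter filter left 187 separated upwards, from fewer tested. Leaving out each array in turn gave 21 to 57 upward calls, 0 to 6 downward calls, 383 to 524 probe sets separated upwards and 338 to 521 downwards, counts that can only grow with fewer arrays. Interaction calls, 2 with all arrays, were 0 with an offset of 16, no filter, the stricter filter and the replicate block, and 0 to 296 without an array. The 296 arose without MCAO candesartan 1, which leaves MCAO candesartan 2 alone in its group, taken to vary like the others; without MCAO candesartan 2 there were 7. H1f10's pooled difference, 0.17 with all arrays and never called, reversed without each candesartan array, between -0.12 and 0.44 over the 8 fits.

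The pool numbers did not pair the samples (correlation of same-numbered deviations -0.10 to 0.14 over 6 pairs of groups). With a replicate block limma called 39 probe sets higher and 1 lower, a set without a single gene name (-0.75, adjusted p = 0.0486), and no named gene changed its call. Of named probe sets, 11 lost their call without the filter, 8 without the variance trend and 4 without the pretreatment covariate (Jun, both Dnajb1 sets and the smaller Cited2 set), while 4 gained one in the fit to 4 group means (Hspb1, Dusp6, Gadd45b and Coq10b). An offset of 16 widened differences of dim genes by over 1.5 times, up to -1.39 for Erap1 and 3.66 for Cxcl1, and changed no call of a named gene.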
